A study of Mus musculus with 6 samples.

Results

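The MYC and MAX network is a set of transcription factor genes whose proteins pair with one another on DNA. It was taken here as 10 genes, the MYC family (Myc, Mycl, Mycn), Max, the MAX partners of the opposing arm (Mxd1, Mxd3, Mxd4, Mxi1, Mnt) and Mlx. They were found by gene symbol in the deposited table, which has 16588 genes, and all 10 were present. They were chosen by their symbols, with their counts and differences in these 6 libraries known, so their levels and differences are given as a description, without a test. All 10 also passed the filter on low counts, which kept 12150 genes.

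The data are gene counts from mouse lung ILC2s, group 2 innate lymphoid cells that answer IL-33 with type 2 cytokines. There were 3 libraries from mice with the genotype label C57BL/6, called wild type (WT) here, and 3 with the label Cnr2 KO. Donors of both groups had been dosed through the nose with IL-33 (0.5 µg, 3 consecutive days), cells were taken on day 4, and the sorted cells were kept in culture for 18 h before RNA was prepared. An RNA amount of 10 pg is given for every library. Cnr2 encodes the cannabinoid receptor CB2. The labels give neither how Cnr2 was altered, nor the age of the animals, nor whether replicates came from separate animals, so p-values speak only of the spread among these samples, which could be technical. The series title speaks of adipose tissue, whereas the sample labels give lung, which is used here.

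MYC proteins carry a basic helix-loop-helix leucine zipper, bind DNA only as a pair with MAX, and recruit acetyltransferase and elongation complexes to genes of ribosome assembly, metabolism and growth. The MXD proteins and MNT take the place of MYC on MAX and bring the SIN3 and histone deacetylase corepressors to the same E-box sequence, CACGTG. MLX is a MAX-like protein that pairs with the glucose-sensing MondoA (Mlxip) and ChREBP (Mlxipl) and also with some MXD proteins and MNT. In lymphocytes MYC rises on activation and falls as cells return to rest, while MXD proteins are known from resting and differentiating cells.

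The E-box and a common variant of it were looked for in the promoters of the members, since MYC, MXD and MLX pairs read these letters. The RefSeq table (GRCm38.p6) gave 11 windows of 300 bases, 250 before to 50 after a start site, for 9 of the 10 members. Myc had no entry. CACGTG, which reads the same on both strands, was in 4 of the 9 genes, and the variant CACGCG in 1. Both strands were searched, on which the variant reads CGCGTG. The windows with a match follow, each 5′ to 3′ on the strand of its gene, with the match in capitals.
Max, chr12:76962199-76962498, minus strand: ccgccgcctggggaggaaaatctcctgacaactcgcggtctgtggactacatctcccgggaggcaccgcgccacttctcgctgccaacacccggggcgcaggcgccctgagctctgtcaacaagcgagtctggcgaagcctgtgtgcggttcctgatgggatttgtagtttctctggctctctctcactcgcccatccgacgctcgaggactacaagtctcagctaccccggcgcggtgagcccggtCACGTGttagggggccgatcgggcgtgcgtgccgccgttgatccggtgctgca
Mlx, chr11:101087040-101087339, plus strand: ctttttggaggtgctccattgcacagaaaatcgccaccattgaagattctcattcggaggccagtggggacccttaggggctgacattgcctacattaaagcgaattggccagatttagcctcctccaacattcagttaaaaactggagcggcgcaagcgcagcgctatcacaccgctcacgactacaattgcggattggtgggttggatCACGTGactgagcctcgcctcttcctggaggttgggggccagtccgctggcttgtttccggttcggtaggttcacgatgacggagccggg
Mnt, chr11:74830674-74830973, plus strand: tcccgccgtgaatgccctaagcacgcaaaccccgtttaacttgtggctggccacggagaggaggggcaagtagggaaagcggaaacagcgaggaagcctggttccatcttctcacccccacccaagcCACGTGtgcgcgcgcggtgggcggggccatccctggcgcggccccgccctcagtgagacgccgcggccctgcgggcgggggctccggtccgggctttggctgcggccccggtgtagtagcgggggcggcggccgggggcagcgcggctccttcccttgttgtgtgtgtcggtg
Mxd4, chr5:34187661-34187960, minus strand: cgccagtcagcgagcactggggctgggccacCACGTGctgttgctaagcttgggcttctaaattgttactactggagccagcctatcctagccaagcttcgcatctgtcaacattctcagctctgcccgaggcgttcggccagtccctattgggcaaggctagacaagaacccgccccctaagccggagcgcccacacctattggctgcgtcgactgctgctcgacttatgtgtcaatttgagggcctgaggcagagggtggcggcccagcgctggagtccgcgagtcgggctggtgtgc
Mycl, chr4:122995681-122995980, plus strand: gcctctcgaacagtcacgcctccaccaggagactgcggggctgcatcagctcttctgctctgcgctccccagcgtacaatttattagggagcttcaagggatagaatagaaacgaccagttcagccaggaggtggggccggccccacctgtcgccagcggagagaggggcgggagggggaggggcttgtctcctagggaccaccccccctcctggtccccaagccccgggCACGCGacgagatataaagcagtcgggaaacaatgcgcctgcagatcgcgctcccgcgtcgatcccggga

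The first base of CACGTG lay 3 bases before the start site in Max, 40 in Mlx, 123 in Mnt and 219 in Mxd4, and that of CACGCG lay 20 bases before it in Mycl. CACGTG was in 7.15% of all 32851 RefSeq windows of this length, and in 12.2% of the 9270 tested genes that had a window. CACGCG was in 9.27% of all windows and in 20.6% of these genes. A gene was counted if any of its windows held the match, so shares of windows and of genes are not alike. A match is a description of the letters and no evidence of binding. Of the 4 genes with CACGTG, Mxd4 and Max were higher in the Cnr2 KO-labelled libraries, and Mnt and Mlx had overlapping groups.

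Total counts were 17867541 to 19399819 in 5 libraries and 129617689 in WT replicate 2. Cnr2 itself had a count of 76, 503 and 60 in the WT libraries, replicates 1 to 3, and of 147, 139 and 135 with the Cnr2 KO label. The level was thus 3.69 ± 0.449 CPM (counts per 1000000 counts of the scaled library) in WT and 7.49 ± 0.0627 CPM in the other group (SD, n = 3 each), against the direction of the label. The table has 1 value per gene, so the loss of single exons was not open to a check, and the group is named by its label throughout. Whether the labels of the groups were exchanged cannot be told from the table, and an exchange would turn every direction given here. All 12 listed ILC2 markers were detected, with a summed level of 8690 to 9364 CPM in WT and 10849 to 11708 CPM in the other group. Of the 12, 9 were called higher and 2 lower, beside 33.1% and 33.2% of all tested genes. Those higher were Gata3 (288 to 1073 CPM), Il1rl1, Il7r, Klrg1, Rora, Id2, Ptprc, Thy1 and Icos. Il13 and Areg fell from 151 to 79.8 CPM and from 243 to 140 CPM. Il5, 58.3% of the summed level in WT and 47.1% in the other group, did not pass. Of the 12150 genes tested with edgeR's quasi-likelihood test, 66.3% were called changed at a Benjamini-Hochberg adjusted p under 0.05, 33.1% higher and 33.2% lower in the Cnr2 KO-labelled libraries. In bulk RNA, fewer cells of a type and less RNA per cell cannot be told apart.

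The MYC arm of the network was lower in the Cnr2 KO-labelled libraries, through both of its well-expressed members. Myc (ENSMUSG00000022346.15, chr15:61985391-61990374, plus strand, GRCm38), the MYC family member of dividing cells, was at 315, 304 and 351 CPM in WT replicates 1, 2 and 3. It was at 87.9, 91.5 and 94.6 CPM in the Cnr2 KO-labelled libraries. Every WT library was above every library of the other group, and the means were 323 ± 24.5 and 91.3 ± 3.37 CPM (SD, n = 3 each). This was 3.54-fold lower, a log2 fold change of -1.82 (SE 0.06), and 5.65% of all tested genes changed by more in either direction.

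Mycl (ENSMUSG00000028654.13, chr4:122995652-123002485, plus strand), the L-MYC gene, known from dendritic cells and lung neuroendocrine cells, was nearly lost in the Cnr2 KO-labelled libraries. Its counts were 897, 6284 and 1041 in the WT libraries, replicates 1 to 3, against 8, 11 and 8 in the other group. In CPM these were 47.1, 48.7 and 55.0 against 0.411, 0.587 and 0.444. The low group thus rests on 27 counts in all, while the coefficient of variation of the WT libraries was 8.32%. The fitted difference was 104-fold, with a log2 fold change of -6.70 (SE 0.15), and 0.189% of tested genes changed by more.

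Mycn (ENSMUSG00000037169.15, chr12:12936093-12941914, minus strand), the N-MYC gene of embryonic and neural tissue, was close to the lower limit of detection in both groups. It was at 1.31, 1.24 and 0.740 CPM in WT and at 1.75, 1.17 and 1.72 CPM in the Cnr2 KO-labelled libraries. The groups overlapped, and the log2 fold change was 0.46 (SE 0.33). In CPM per kb of exon, which allows genes to be compared, Myc made up 90.3 ± 0.280% of the MYC family in WT and 98.3 ± 0.229% in the other group (SD, n = 3 each). Mycl went from 9.44 ± 0.292% to 0.348 ± 0.0673% of the family and Mycn from 0.257 ± 0.0866% to 1.37 ± 0.294%.

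**Figure D1:**
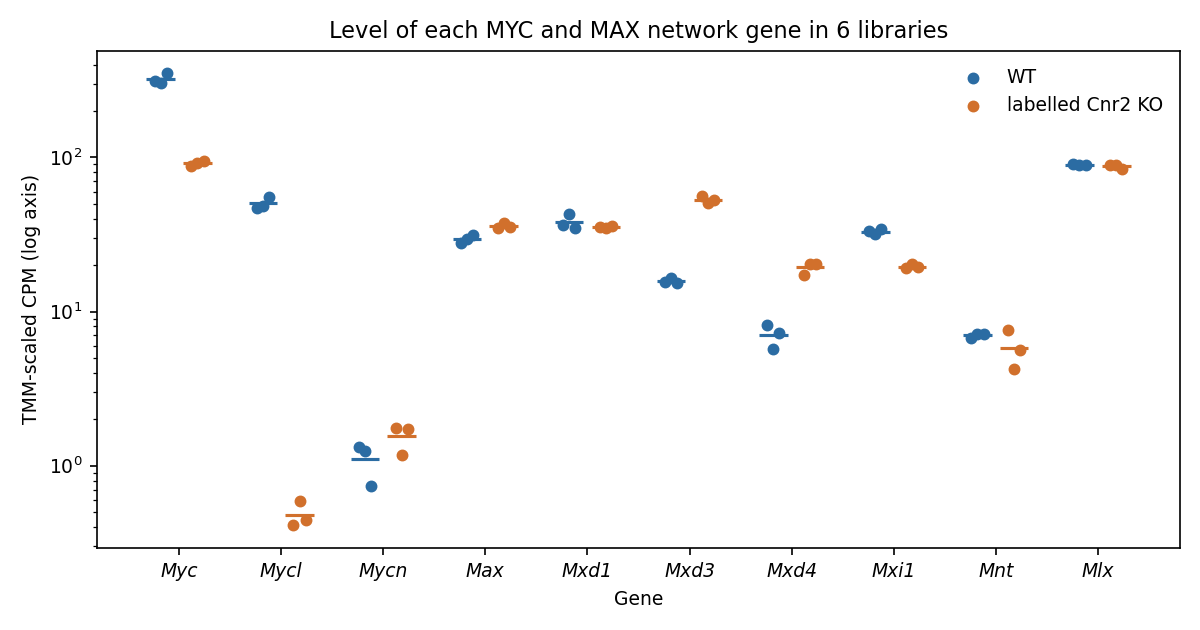
TMM-scaled CPM (log axis) of the 10 network genes in each of 6 libraries, WT in blue and labelled Cnr2 KO in orange, with points for libraries and a bar for the group mean. Myc, Mycl and Mxi1 are lower in all 3 libraries labelled Cnr2 KO, Max, Mxd3 and Mxd4 are higher in all 3, and the groups of Mycn, Mxd1, Mnt and Mlx overlap.

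Max and Mlx, the shared partners, differed little beside the MYC arm. Max (ENSMUSG00000059436.13, chr12:76937269-76962201, minus strand), the obligate partner of MYC, MXD and MNT, was at 27.9, 29.3 and 31.6 CPM in WT and at 34.7, 37.7 and 35.3 CPM in the Cnr2 KO-labelled libraries. The groups did not overlap, but the gap was small: 29.6 ± 1.87 against 35.9 ± 1.58 CPM (SD, n = 3 each), 1.21-fold higher, log2 fold change 0.28 (SE 0.08), and 63.5% of tested genes changed by more. Mlx (ENSMUSG00000017801.15, chr11:101087277-101092207, plus strand) was at 90.2, 88.6 and 89.1 CPM in WT and at 88.9, 89.2 and 84.6 CPM in the other group. These groups overlapped, the log2 fold change was -0.03 (SE 0.05), and its sign turned under 2 of 15 alternative fits, to 0.01 with upper quartile scaling and 0.11 with an offset for GC content and length. Mlx shares 385 bases with Psmc3ip on the opposite strand, a recombination factor that fell from 20.96 to 13.3 CPM (log2 fold change -0.66, edgeR adjusted p = 1.52e-05). Whether counting used strand is not given in the sources used here, and reads of the shared stretch cannot be assigned to either gene.

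The opposing arm did not move as 1 block: of its 5 genes, Mxd3 and Mxd4 were higher in the Cnr2 KO-labelled libraries, Mxi1 was lower, and Mxd1 and Mnt had overlapping groups. Mxd3 (ENSMUSG00000021485.14, chr13:55325168-55329823, minus strand), a MXD member known from cells in S phase, was at 15.5, 16.5 and 15.4 CPM in WT. It was at 56.4, 50.8 and 52.7 CPM in the other group. The lowest of these was above every WT library, with a 3.34-fold difference (log2 fold change 1.74, SE 0.08), and 6.22% of tested genes changed by more. Mxd3 shares 105 bases with Prelid1 on the opposite strand, a mitochondrial lipid transfer gene with levels of 599 and 690 CPM (log2 fold change 0.20, edgeR adjusted p = 3.07e-04).

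Mxd4 (ENSMUSG00000037235.13, chr5:34173883-34187720, minus strand), an MXD gene of resting and differentiating cells, was at 8.19, 5.68 and 7.24 CPM in WT and at 17.3, 20.3 and 20.3 CPM in the Cnr2 KO-labelled libraries. All 3 libraries of the latter were higher, by 2.86-fold (log2 fold change 1.51, SE 0.13). An annotated antisense RNA, Gm42846, lies over 1001 bases of Mxd4 and was not analysed here. Other annotated genes that overlap members were not analysed either. On the opposite strand of Mxi1 these were AC133451.2 (5146 bases) and Gm10197 (201 bases). On the same strand they were Gm44292 with Mxd1 (2364 bases) and Gm47218 with Max (1319 bases). Mxi1 (ENSMUSG00000025025.14, chr19:53310518-53375810, plus strand), also called MXD2, was at 33.2, 31.6 and 34.2 CPM in WT and at 19.2, 20.2 and 19.4 CPM in the other group. All 3 of the latter were lower, by 1.68-fold (log2 fold change -0.75, SE 0.08), so Mxi1 differed in the same direction as Myc and opposite to Mxd3 and Mxd4.

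Mxd1 (ENSMUSG00000001156.9, chr6:86647042-86669161, minus strand), the MAD1 gene of terminally differentiating cells, was at 36.5, 42.9 and 35.03 CPM in WT and at 35.3, 34.9 and 36.2 CPM in the Cnr2 KO-labelled libraries. The groups overlapped (log2 fold change -0.12, SE 0.08). Mnt (ENSMUSG00000000282.12, chr11:74830920-74845725, plus strand), the broadly expressed MAX partner that opposes MYC in dividing cells, was at 6.78, 7.13 and 7.13 CPM in WT. Its level in the other group was 7.60, 4.22 and 5.60 CPM, a wider spread that held the WT values, with a log2 fold change of -0.27 (SE 0.18). Replicate 1 of the Cnr2 KO-labelled libraries was the high one: without it the log2 fold change was -0.52 and without replicate 2 it was -0.09.

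**Figure D2:**
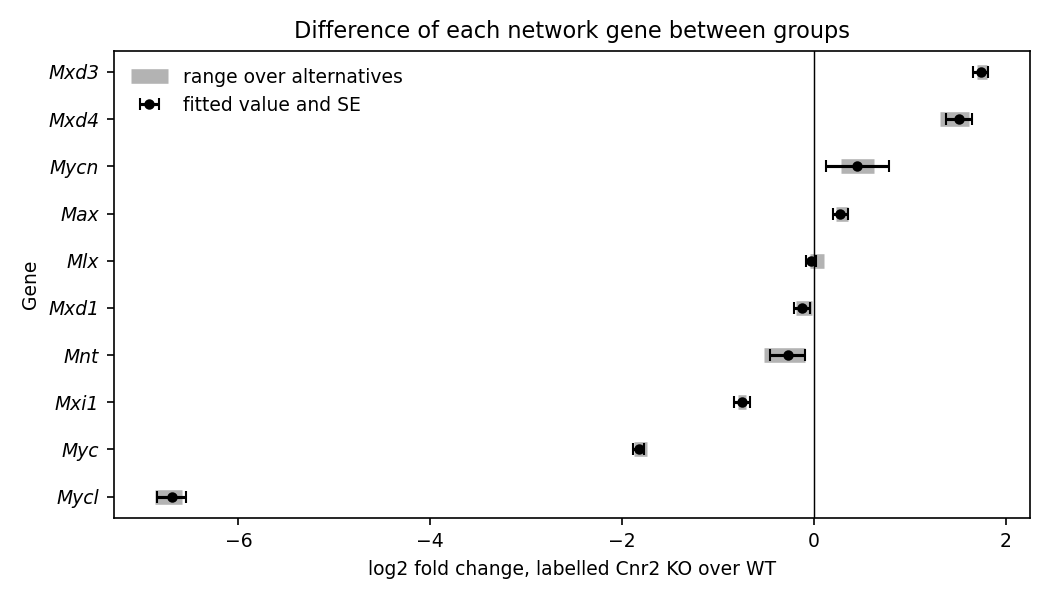
Log2 fold change of each network gene, labelled Cnr2 KO over WT, with the fitted value and its SE (black) and the range over the alternative fits (grey). Mycl stands at -6.70 and Myc at -1.82, Mxd3 at 1.74 and Mxd4 at 1.51, and the grey range crosses 0 for Mlx.

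Of the 10 members, 3 were called higher and 3 lower, beside 33.1% and 33.2% of all tested genes (66.3% either way). The 6 members whose groups did not overlap stand beside 68.9% of tested genes, and since the members were chosen with these values known, nothing is read from either count. The median log2 fold change of the members was -0.07, against 0.01 over all tested genes. By size, 4 of 10 members (Myc, Mycl, Mxd3, Mxd4) differed by at least 2-fold, as did 16.6% of tested genes (8.89% called higher and 7.47% called lower by that much), which is again a description.

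Per kb of exon, the order of the levels changed between the groups. In WT it was Myc (119 CPM per kb), Mlx (44.7), Mycl (12.4), Max (8.23), Mxd3 (6.68), Mxd1 (5.39), Mxi1 (4.84), Mnt (1.52), Mxd4 (0.830) and Mycn (0.333). Mxd1 and Mxi1 were the only neighbours in this order whose libraries overlapped. In the Cnr2 KO-labelled libraries it was Mlx (43.8 CPM per kb), Myc (33.6), Mxd3 (22.5), Max (9.97), Mxd1 (5.01), Mxi1 (2.87), Mxd4 (2.28), Mnt (1.255), Mycn (0.469) and Mycl (0.119), and no neighbours overlapped. Myc thus passed from above Mlx to below it, Mxd3 from below Max to above it, and Mycl from the third place to the last. Per kb of coding sequence the order differed: in WT, Mycl at 45.5 CPM per kb came after Max (59.9) and Mxd1 (49.9), and overlapped with Mxd1. In the other group Myc (67.0) came after Mlx (97.9), Mxd3 (86.3) and Max (72.6), and Mycl was again last.

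The balance of the arms followed from these levels. The MYC family made up 64.0, 63.2 and 66.5% of the summed CPM per kb of the network in the WT libraries, replicates 1 to 3, and 26.9, 28.0 and 29.2% in the Cnr2 KO-labelled libraries. The MXD family with Mnt made up 9.52, 10.1 and 8.77% in WT and 28.8, 26.8 and 27.9% in the other group. Neither pair of groups overlapped. With coding length the shares were 50.04 and 16.1% for the MYC family, 21.7 and 43.7% for the MXD family with Mnt, and 10.6 and 17.1% for Max, in WT and in the other group. The sum over the network was 204 ± 9.89 CPM per kb in WT and 122 ± 0.510 in the other group (SD, n = 3 each), so that the share of Mlx went from 21.9 ± 1.07% to 35.9 ± 0.944% while its level stayed within overlapping ranges. Max was 4.03 ± 0.139% in WT and 8.18 ± 0.364% in the other group.

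The MYC family stood at 6.73, 6.26 and 7.58 times the MXD family with Mnt in the WT libraries and at 0.934, 1.05 and 1.05 times in the Cnr2 KO-labelled libraries. This ratio depends on the length used: with coding length it was 2.31 ± 0.235 against 0.369 ± 0.0151, and without any length 3.71 ± 0.357 against 0.6995 ± 0.0320 (SD, n = 3 each). On all 3 scales the WT libraries were higher. Relative to Max, the MYC family went from 16.02 ± 0.670 to 3.43 ± 0.176 and the MXD family with Mnt from 2.35 ± 0.172 to 3.41 ± 0.273. Within the MXD arm, Mxd3 went from 34.7 ± 0.318% to 66.3 ± 0.968%, Mxd1 from 28.0 to 14.8%, Mxi1 from 25.1 to 8.48%, Mnt from 7.87 to 3.67% and Mxd4 from 4.32 to 6.73%. RNA levels do not give the amounts of the proteins or of their pairs.

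**Figure D3:**
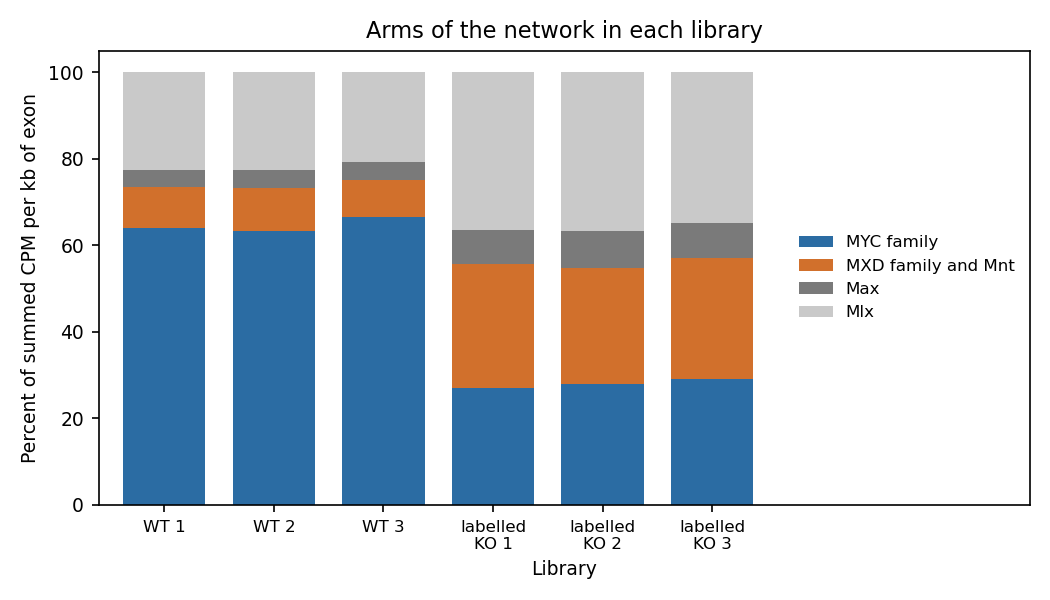
Percent of the summed CPM per kb of exon of the 10 network genes held by the MYC family, the MXD family with Mnt, Max and Mlx, in each of 6 libraries. The MYC family holds 63.2 to 66.5% in WT and 26.9 to 29.2% in the Cnr2 KO-labelled libraries, and the MXD family with Mnt 8.77 to 10.1% and 26.8 to 28.8%.

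The listed genes that MYC is known to activate were lower almost as a block. Of 69 listed genes, 68 were tested, 61 fell in the Cnr2 KO-labelled libraries, 3 rose and 4 did not pass, which is 94.1% called beside 66.3% of all tested genes. Their median log2 fold change was -1.03, against 0.01 over all tested genes, and 38 fell by at least 2-fold, as did 7.47% of all tested genes. The list was written with earlier results of these data known, so these counts are a description. Its members were not used to choose the network genes.

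The 6 genes of the smallest p showed the range of functions. Mybbp1a, a nucleolar factor of ribosomal RNA processing, was at 949, 892 and 944 CPM in WT and at 318, 325 and 313 CPM in the Cnr2 KO-labelled libraries (2.91-fold lower, log2 fold change -1.54, SE 0.04, edgeR adjusted p = 9.21e-16). Hspd1, the mitochondrial chaperone HSP60, was at 960, 1003 and 1077 CPM in WT and at 308, 327 and 311 CPM in the other group (3.22-fold lower, adjusted p = 1.14e-15). Npm1, the nucleolar protein nucleophosmin, was at 1603, 1651 and 1686 CPM in WT and at 360, 447 and 449 CPM in the other group (3.93-fold lower, adjusted p = 5.34e-15). None of these groups came near to overlapping.

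The polyamine enzymes Odc1 and Srm, both direct MYC targets in many cells, fell together. Odc1, ornithine decarboxylase, went from 1021 ± 30.1 to 362 ± 18.5 CPM (2.82-fold lower, edgeR adjusted p = 3.22e-15). Srm, spermidine synthase, went from 551 ± 38.8 to 165 ± 7.56 CPM (3.33-fold lower, adjusted p = 3.22e-15). Slc19a1, the reduced folate carrier, went from 222 ± 8.83 to 63.7 ± 3.58 CPM (3.49-fold lower, adjusted p = 2.44e-15). All errors are SD with n = 3 per group.

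The genes of the list that rose or did not pass, and 2 that fell, were chosen for mention after their values were seen. Sord, sorbitol dehydrogenase, rose 3.88-fold from 3.68 ± 0.721 to 13.9 ± 1.15 CPM (SD, n = 3 each, edgeR adjusted p = 1.43e-09). Plk4, the kinase of centriole duplication, and Mcm4, of the replicative helicase, rose 1.21-fold and 1.14-fold (adjusted p = 1.94e-04 and 8.87e-04). The 4 that did not pass were Cbx3, Mcm5, Plk1 and Ccnd2, with adjusted p-values of 0.186, 0.210, 0.412 and 0.602. Ldha, lactate dehydrogenase and the most abundant of the list at 5923 ± 265 CPM in WT, fell by 1.29-fold to 4594 ± 88.6 CPM (adjusted p = 1.72e-07). The largest fold was in Slc29a2, a nucleoside transporter, which fell 4.68-fold from 5.84 ± 1.04 to 1.22 ± 0.306 CPM (adjusted p = 1.46e-07).

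**Figure D4:**
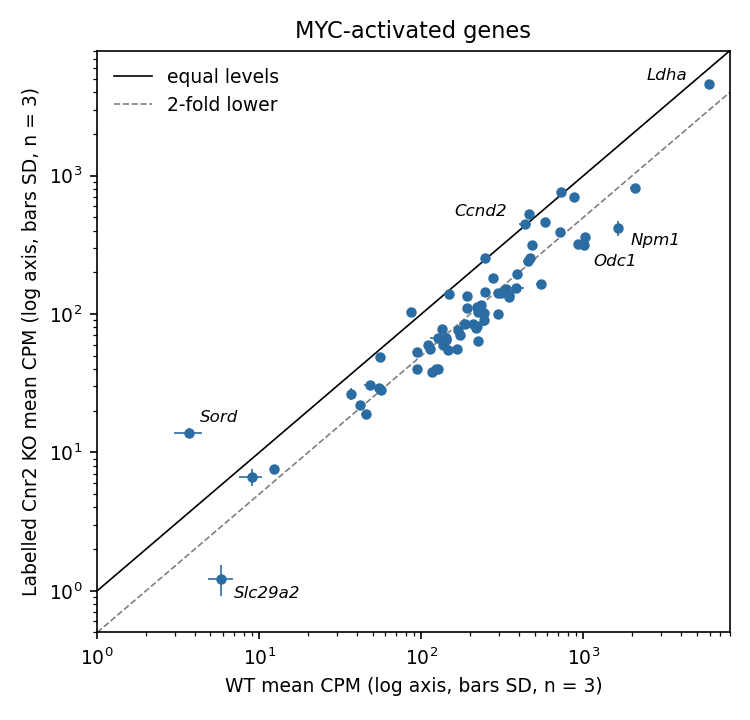
Mean CPM of the 68 tested MYC-activated genes in WT (x, log axis) and in the Cnr2 KO-labelled libraries (y, log axis), with SD bars (n = 3), the line of equal levels and the line of 2-fold lower levels. Most genes lie at or under the 2-fold line, with Sord above the line of equal levels and Ccnd2 on it.

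The E-box was also looked for in the promoters of these targets. CACGTG was in 17 of 59 MYC-activated genes with a RefSeq window (28.8%), beside 12.2% of tested genes, and CACGCG in 24 of 59 (40.7%), beside 20.6%. Windows of Mybbp1a and Hspd1 are printed, with matches in capitals. In Mybbp1a the E-box starts 41 bases after the start site, and CACGCG and CGCGTG overlap each other 115 and 111 bases before it. In the window of Hspd1 shown the E-box starts 80 bases before the start site, and another window of Hspd1 holds CACGCG only. They are shown because they hold CACGTG: the window of Odc1 and both windows of Slc19a1 do not. The variant has 2 matches in the window of Odc1 and 1 match in 1 window of Slc19a1. Srm and Npm1 had no entry.
Mybbp1a, chr11:72441077-72441376, plus strand: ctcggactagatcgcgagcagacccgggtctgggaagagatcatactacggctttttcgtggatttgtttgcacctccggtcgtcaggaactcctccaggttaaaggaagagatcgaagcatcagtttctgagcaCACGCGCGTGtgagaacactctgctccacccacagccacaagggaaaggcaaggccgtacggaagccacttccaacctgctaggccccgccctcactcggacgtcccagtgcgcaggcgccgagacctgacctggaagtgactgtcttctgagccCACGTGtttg
Hspd1, chr1:55088194-55088493, minus strand: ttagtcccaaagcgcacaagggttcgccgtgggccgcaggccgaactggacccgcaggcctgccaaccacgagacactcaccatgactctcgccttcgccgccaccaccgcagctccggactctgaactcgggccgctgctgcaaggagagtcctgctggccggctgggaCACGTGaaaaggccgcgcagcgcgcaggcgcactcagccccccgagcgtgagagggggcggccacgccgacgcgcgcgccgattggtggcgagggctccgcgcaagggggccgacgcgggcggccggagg

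Within the list, genes with and without the match had similar differences. The 17 MYC-activated genes with CACGTG had a median log2 fold change of -0.97 and all 17 fell, and the 42 without it had a median of -1.06 and 37 fell. Over all tested genes with a window, 40.5% of the 1131 with CACGTG were called lower and 31.4% higher, against 34.1% and 34.2% of the 8139 without it. The medians were -0.09 and 0.01. The variant CACGCG showed the same direction: 41.0% of the 1909 genes with it were called lower and 29.1% higher. Of the 7361 without it, 33.3% were called lower and 35.1% higher, and the medians were -0.09 and 0.03. Base composition differs between promoters with and without such a match, and its part in these shares was not tested.

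Genes that MYC is known to repress were mixed. Of 12 listed genes, 9 were tested, 5 rose, 2 fell and 2 did not pass (77.8% called, beside 66.3% of all tested genes, median log2 fold change 0.17). The cell cycle inhibitor gene Cdkn2c (p18) was at 12.8, 13.1 and 14.8 CPM in WT and at 69.2, 66.0 and 67.8 CPM in the Cnr2 KO-labelled libraries. It rose 5.02-fold (log2 fold change 2.33, SE 0.08, edgeR adjusted p = 5.79e-15). Cdkn1b (p27) and Cdkn2b (p15), 2 other such inhibitors named after their values were seen, rose 2.09-fold to 6.90 ± 1.10 CPM and 2.27-fold to 2.09 ± 0.236 CPM (SD, n = 3, adjusted p = 5.14e-05 and 0.00277). In the other direction, Cdkn1a (p21) fell from 131 ± 5.76 to 99.4 ± 4.67 CPM (adjusted p = 3.70e-06) and Ndrg1, a stress and differentiation gene, from 26.9 ± 1.37 to 15.9 ± 3.71 CPM (adjusted p = 1.90e-05).

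Of 17 tested coactivators that MYC recruits, 11 fell, 3 rose and 3 did not pass. This was 82.4% called, beside 66.3% of all tested genes (33.2% lower, 33.1% higher), with a median log2 fold change of -0.18. The AAA+ helicases Ruvbl2 and Ruvbl1, shared by several remodelling complexes, fell most. Ruvbl2 went from 275, 260 and 284 CPM in WT to 101, 101 and 94.4 CPM (log2 fold change -1.46, SE 0.05, edgeR adjusted p = 1.46e-14) and Ruvbl1 from 276 ± 7.43 to 114 ± 5.62 CPM (adjusted p = 6.99e-14). Kat2a, the GCN5 acetyltransferase, went from 106 ± 5.51 to 62.5 ± 4.31 CPM (adjusted p = 3.02e-09). Ep300, Crebbp and Ep400, named as the only ones that rose, had log2 fold changes of 0.51, 0.22 and 0.18, and with an offset for GC content and length 1 coactivator in place of 3 was called higher.

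The SIN3 and histone deacetylase corepressors, which MXD proteins recruit, were called about as often as all genes. Of 16 tested, 7 rose, 4 fell and 5 did not pass (68.8% called, beside 66.3% of all tested genes, median log2 fold change 0.00), and none changed by 1.5-fold or more. Ncor1, a nuclear corepressor, rose from 167 ± 11.1 to 245 ± 11.7 CPM (log2 fold change 0.56, edgeR adjusted p = 3.08e-08). The deacetylase genes Hdac2 and Hdac1 fell from 209 ± 6.42 to 160 ± 2.23 CPM and from 341 ± 14.2 to 276 ± 13.5 CPM (adjusted p = 6.99e-07 and 2.17e-05). With an offset for GC content and length, 4 in place of 7 were called higher.

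Among 22 genes that control the stability of MYC protein, 6 rose, 7 fell and 9 did not pass (59.1% called, below the 66.3% of all tested genes, median log2 fold change -0.07). Usp28, a deubiquitinase known to stabilise MYC, was at 1.94, 1.94 and 1.74 CPM in WT and at 10.7, 11 and 13.3 CPM in the Cnr2 KO-labelled libraries. It thus rose 6.12-fold (log2 fold change 2.61, SE 0.17, edgeR adjusted p = 7.73e-11). Set, an inhibitor of the phosphatase PP2A that removes a stabilising phosphate from MYC, fell from 679 ± 48.6 to 343 ± 16.4 CPM (adjusted p = 6.78e-12), and Ppp2r5a, a PP2A subunit that targets MYC, rose from 122 ± 5.42 to 206 ± 0.920 CPM (adjusted p = 1.00e-10). Fbxw7, of the ubiquitin ligase that degrades MYC and named after its values were seen, was at 16.9 ± 1.73 and 14.8 ± 1.39 CPM and did not pass (adjusted p = 0.122). The members of this list act in both directions on MYC, and no MYC protein was measured.

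Other factors that read the E-box, and the partners of MLX, showed no common direction. Of 12 listed factors 10 were tested, 4 rose, 2 fell and 4 did not pass (60% called, beside 66.3% of all tested genes, median log2 fold change 0.07). Tfeb, the lysosome regulator, was at 5.20, 6.74 and 5.71 CPM in WT and at 17.7, 16.5 and 17.2 CPM in the Cnr2 KO-labelled libraries (2.83-fold higher, edgeR adjusted p = 2.67e-09), whereas its relative Tfe3 fell from 33.8 ± 2.31 to 25.8 ± 2.14 CPM (adjusted p = 4.50e-04). Usf1, an E-box factor outside the MAX network, rose from 27.1 ± 0.217 to 33.9 ± 0.599 CPM (adjusted p = 6.94e-04). Of 2 factors named after their values were seen, Mlxip, the partner of MLX, was at 55.8 ± 3.52 and 58.5 ± 2.52 CPM (adjusted p = 0.332), and Mga, a MAX partner, at 55.3 ± 6.69 and 49.9 ± 3.16 CPM (adjusted p = 0.115). Only 2 factors were called higher when WT replicate 1, WT replicate 3 or replicate 2 labelled Cnr2 KO was left out, in place of 4.

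The polycomb complex in which MGA and MAX sit had 2 genes that rose, 4 that fell and 5 that did not pass, of 11 tested (54.5% called, beside 66.3% of all tested genes, median log2 fold change -0.13). Pcgf6, its defining RING partner, fell from 36.0 ± 1.18 to 19.0 ± 1.53 CPM (log2 fold change -0.92, edgeR adjusted p = 1.19e-08), Tfdp1, the partner of E2F6, from 437 ± 10.1 to 343 ± 8.55 CPM (adjusted p = 1.13e-06), and Yaf2, a RYBP relative, rose from 72.9 ± 5.96 to 89.3 ± 4.21 CPM (adjusted p = 6.59e-04). Target genes of MLX and its glucose-sensing partners were 7 tested of 9 listed, with 2 that rose, 4 that fell and 1 that did not pass (85.7% called, beside the same 66.3%, median log2 fold change -0.15). Txnip, which restrains glucose uptake, rose from 74.1, 68.4 and 72.5 CPM in WT to 172, 187 and 199 CPM (log2 fold change 1.38, SE 0.06, adjusted p = 2.07e-13). Klf10, a zinc finger repressor, rose from 56.8 ± 2.98 to 118 ± 3.08 CPM (adjusted p = 6.03e-12), whereas the lipogenic gene Elovl6 fell from 32.2 ± 1.65 to 19.0 ± 0.498 CPM (adjusted p = 1.05e-07). Arrdc4, a relative of Txnip named after its values were seen, was at 9.26 ± 0.664 and 9.50 ± 1.24 CPM (adjusted p = 0.888).

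**Figure D5:**
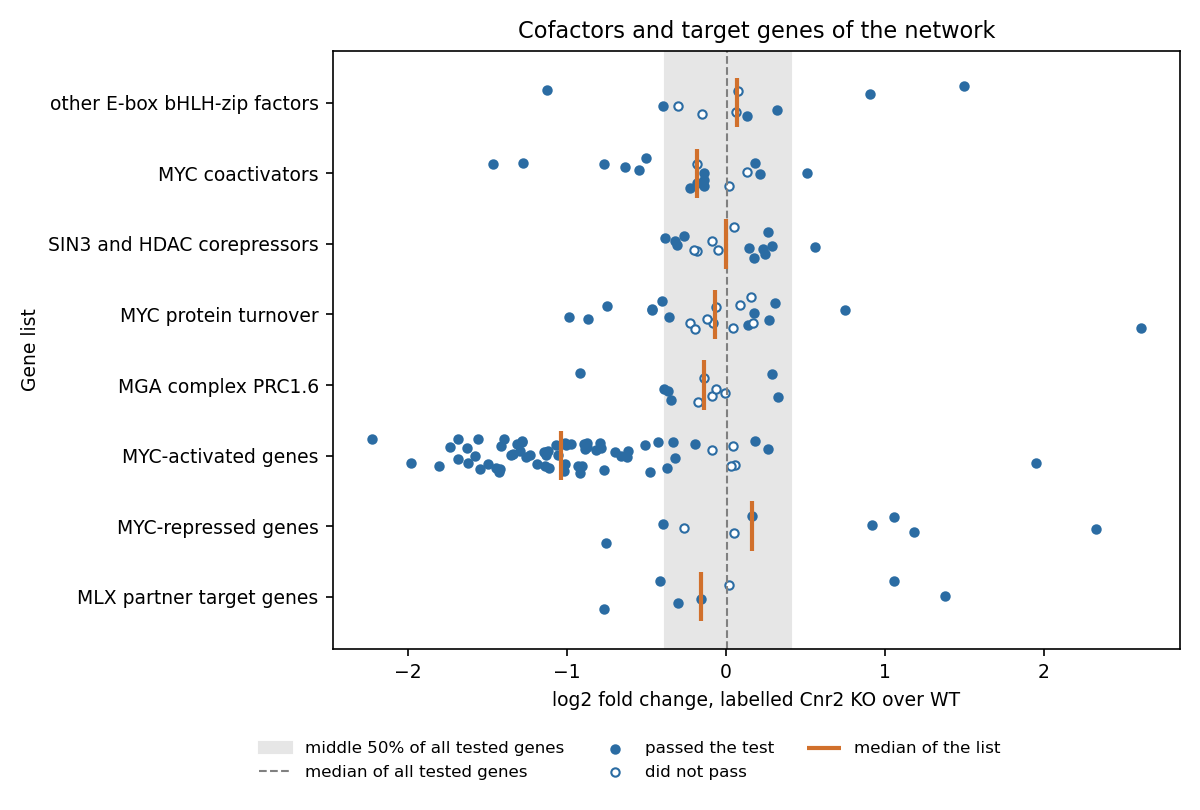
Log2 fold change, labelled Cnr2 KO over WT, of each tested gene of 8 lists of cofactors, regulators and target genes, with filled points for genes that passed the test, an orange bar for the median of a list and grey for the middle 50% of all tested genes. The MYC-activated genes have their median at -1.03 and the other 7 lists between -0.18 and 0.17.

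The genes whose pattern over the 6 libraries was most like those of Myc and Mycl were sought among 9365 other genes of at least 5 CPM, by the Euclidean distance of centred log2 CPM, a measure that the 2-group difference dominates. Nearest to Myc were Srm (distance 0.128), Nek6 (0.143), Gfpt2 (0.156), Slc11a1 (0.177) and Galk1 (0.179). Srm is also 1 of the 68 MYC-activated genes. Nearest to Mycl were Ccr7 (0.839), Shisa3 (1.12), Il1rn (1.30), Plek (1.41) and Satb1 (1.54), each at least 40.9-fold lower in the Cnr2 KO-labelled libraries in the fit. The most abundant of them, the chemokine receptor gene Ccr7, had levels of 467 ± 18.1 CPM (WT) and 7.73 ± 0.891 CPM (SD, n = 3 each).

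Ccr7 and Mycl are both known from dendritic cells, so markers of these cells are given here. Their summed level was 524 to 561 CPM in WT and 86.7 to 96.0 CPM in the Cnr2 KO-labelled libraries, from 10 of 14 listed genes found in the table, of which Ccr7 made up 86.8% in WT and 8.56% in the other group. Without Ccr7 the mean sums were 71.2 CPM in WT and 82.6 CPM in the other group. The class II genes H2-Ab1 (19.4 and 17.4 CPM), H2-Aa (5.20 and 6.19 CPM) and Cd74 (34.2 and 35.2 CPM) did not pass. Itgax, Flt3 and Zbtb46 were near 0 in both groups. Itgax had 5, 30 and 0 counts in WT and 3, 0 and 5 in the other group, Flt3 1, 10 and 3 against 2, 1 and 0, and Zbtb46 15, 53 and 14 against 6, 6 and 2. Batf3 had 17, 123 and 23 counts in WT and 0 in each library of the other group, and Xcr1 rose from 10.3 ± 1.498 to 23.3 ± 2.87 CPM. Only 6 of 10 listed T cell genes were in the table. Their summed level was 59.4 to 62.4 CPM in WT and 110 to 117 CPM in the other group. Trbc2 made up 65.2 and 59.4% of it, and Trac fell from 1.48 to 0.464 CPM. That of 4 ILC3 genes (of 6 listed) was 4.66 to 4.83 CPM and 0.822 to 1.16 CPM. Il17a, Il17f and Il22 were at 0 counts in all libraries labelled Cnr2 KO. Summed levels of NK cell and ILC1 genes (3 of 6 listed) were 57.0 to 77.8 and 46.1 to 59.8 CPM, of which Gzma alone made up 97.8 and 96.0%. Those of macrophage and monocyte genes (3 of 8 listed) were 1.05 to 1.67 and 3.44 to 5.66 CPM. Cd79b, the only 1 of 5 listed B cell genes in the table, stood at 16.1 to 17.2 and 25.1 to 26.3 CPM. Eosinophil, basophil and mast cell genes (4 of 6 listed) summed to 96.9 to 107 and 169 to 184 CPM, of which Kit made up 97.3 and 97.7%. The part of such cells in the levels of the network genes was not tested.

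The genes next to the members moved in both directions. Mfsd2a, 34464 bases before Mycl, and Trit1, 14112 bases after it, fell by 2.02-fold and 1.54-fold (edgeR adjusted p = 9.69e-10 and 1.60e-05), against 104-fold for Mycl. Mycl (chr4:122995652-123002485) and Cnr2 (chr4:135895394-135920207) lie on the same chromosome. Whether this bears on the levels of Mycl and its neighbours was not tested. Pvt1, a noncoding RNA 47612 bases after Myc, had levels of 5.74 ± 0.320 CPM (WT) and 4.74 ± 0.490 CPM and did not pass (adjusted p = 0.164), while 9930014A18Rik, the nearest tested gene before Myc, fell from 5.34 ± 1.36 to 3.30 ± 0.415 CPM (adjusted p = 0.00661). Smndc1, 3580 bases after Mxi1, fell with a log2 fold change of -0.53 (adjusted p = 5.87e-06), the direction of Mxi1. Add3, 63119 bases before Mxi1, rose from 15.1 ± 0.815 to 62.7 ± 1.78 CPM (adjusted p = 2.48e-14), and Mettl16, 2395 bases before Mnt, fell from 141 ± 5.01 to 64.6 ± 4.24 CPM (adjusted p = 3.65e-12), where Mxi1 was lower and Mnt had overlapping groups. Beside Mxd3, Rab24 rose with a log2 fold change of 0.26 and Lman2 fell by 0.20 on the log2 scale, and beside Mxd4, Haus3 (log2 fold change -0.10) did not pass and Rnf4 fell by 0.22 on that scale.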

How the data were processed

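The values the authors deposited are expected counts (estimated, not always whole), 1 per gene in each library. Of those of a library, 80.3 to 81.2% were whole to within 0.02 in 5 libraries, and 59.1% in WT replicate 2. Tools named in the submitters' processing notes, without role or order, are STAR 2.7.8, Partek 10.0 and DESeq2, with mm10 as the build. How reads were counted, and on which strand, is not given in the sources used here. Gene positions and exon lengths come from GENCODE M21 (GRCm38), to which 16233 of 16588 genes matched.

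The deposited counts were rounded and fitted as 1 table with edgeR 4.0.16 in R 4.3.3: TMM scaling, filterByExpr (minimum count 10, minimum total 15), genotype as the only term, the quasi-likelihood test and Benjamini-Hochberg adjustment over 12150 genes, with 4438 left out. The threshold was 0.05. The script was tested on simulated data. The approximate SE is the log2 fold change divided by the square root of F. Levels are TMM-scaled CPM, with mean ± SD over 3 libraries, and levels between genes are per kb of exon.

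The members and lists were chosen with earlier results of these data known. Genes named are the members, Cnr2, the 3 of each list with the smallest p (6 of the MYC-activated genes), overlapping and neighbouring genes, the 5 genes most like Myc and Mycl, and leading markers. All other genes named were chosen after their values were seen. Same-group replicates differed beyond sampling noise, with a chi-square of 4.09 to 8.93 per gene. Alternatives were DESeq2 1.42.0 and its size factors, upper quartile scaling, other filters and thresholds, limma 3.58.1 (voom with quality weights), a replicate block, thinning of WT replicate 2, leaving out each library and, chosen after seeing the data, an offset for GC content and length.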

Additional observations from a re-analysis of the deposited data

How the results depend on the processing

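Of 388 recomputed counts and shares, 345 stayed close to the value reported and 43 moved further from it. The fitted differences of Myc, Max, Mxd3, Mxd4 and Mxi1 kept their sign in all 15 alternative fits, which is a description, with ranges of -1.87 to -1.74, 0.23 to 0.36, 1.70 to 1.81, 1.32 to 1.62 and -0.79 to -0.71. Mycl kept its sign in the 14 fits that held it (-6.87 to -6.59), and a filter of 1 CPM in all libraries left it out. Requiring 1.5-fold left 2055 genes higher and 1906 lower in the whole table. It left 2 E-box factors higher and 1 lower, 0 coactivators higher and 4 lower, 0 corepressors either way, 2 turnover genes higher and 3 lower, 0 genes of the MGA complex higher and 1 lower, 1 MYC-activated gene higher, and 1 gene lower in each of the MYC-repressed and MLX lists, by the construction of the threshold. An adjusted p under 0.01 left 2 E-box factors higher, and the filter of 1 CPM left 1 lower. The offset for GC content and length gave 4 E-box factors lower, 1 coactivator, 4 corepressors, 1 gene of the MGA complex and 5 MYC-activated genes higher, and the cause was not tested. Leaving out 1 library gave 2 to 5 E-box factors higher and 59 to 62 MYC-activated genes lower. Whether the replicate numbers pair the samples cannot be told from the correlations, which were all small. Those of the same number were 0.0057 to 0.0656. WT replicates 1 and 3 correlated best with their own number, and WT replicate 2 with replicate 3 of the other group (0.0293). With a replicate block, 4061 genes were higher and 4113 lower, 61 MYC-activated genes were lower, and 3 members were called in each direction.

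The shares of the arms depend on the length used. The MYC family held 50.04% in WT and 16.1% in the Cnr2 KO-labelled libraries with coding length, 26.6% in the latter without any length, and 62.3% in WT without Mycl. The MXD family with Mnt held 21.7 and 43.7% with coding length and 17.0 and 38.1% without length. Max held 10.6 and 17.1% with coding length, 4.98 and 10.2% without length, and 4.30% in WT without Mycl. Mlx held 17.7 and 23.1% with coding length, 15.0 and 25% without length, and 23.4% in WT without Mycl. Depth limits Mycl, Mycn and Mnt most, at 27, 87 and 328 counts over the 3 Cnr2 KO-labelled libraries.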
